A study of Mus musculus with 32 samples.

Results

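The suppressor of cytokine signalling (SOCS) family is a set of 8 genes, Socs1 to Socs7 and Cish, whose proteins restrain signalling from cytokine receptors. The members were taken by gene symbol and matched to Ensembl identifiers. All 8 were found among the 23035 genes of the ribosome footprint tables and among the 39017 genes of the total RNA tables. Each member was followed in every library, whether or not it had enough reads for a test.

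Cytokine receptors signal through Janus kinases (JAKs), which phosphorylate STAT transcription factors. Each SOCS protein carries an SH2 domain, which binds phosphotyrosine, and a SOCS box, which binds elongins B and C and a cullin and so recruits a ubiquitin ligase. Socs1 and Socs3 also hold a short region that inhibits JAK kinases directly, and both genes are known STAT targets, so that they form a negative feedback loop. Cish and Socs2 are best known for restraining signalling through STAT5, whereas Socs4 to Socs7 have long N-terminal regions and have been linked mainly to growth factor receptors and to the insulin pathway.

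The study asked how interferon-β (IFN-β), a type I interferon, changes mRNA translation in neural stem cells (NSCs). The cells came from the ventricular-subventricular zone of male C57BL/6 mice aged 8 to 12 weeks and were grown ex vivo in a medium with growth factors. Cultures received IFN-β or vehicle (albumin in buffered saline) for 2 h or 14 h (the labels' times; the study's text gives a longer time for the second in places), and all groups were given cycloheximide shortly before lysis to hold ribosomes in place. Each of the 4 groups holds 4 cultures, with replicate numbers 2, 3, 5 and 6 for the short exposure and 1 to 4 for the long one, and each culture gave 1 library of ribosome footprints, counted in coding sequence, and 1 of total RNA, counted over the gene body. The study's methods state that replicates were different mice or cultures from different mice. The cells were thus studied outside the brain, and in bulk libraries fewer cells of a type and less RNA per cell cannot be told apart.

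Footprint libraries held 2956297 to 10505108 counts and total RNA libraries 1370008 to 7877753. Of 12 neural stem cell markers, 11 or 12 reached a mean of 1 CPM (counts per 1000000 counts of the library, with TMM scaling) in footprints of every group, and their summed level per library was 16100 to 19500 CPM at 2 h and 12400 to 14700 CPM at 14 h. The microglial and immune markers Aif1, Cx3cr1 and C1qa had no footprint in any library, although at 14 h P2ry12 had 23.0 CPM with IFN-β against 7.35 CPM with vehicle and Itgam 19.0 against 32.3 CPM. The summed level of all 8 such markers at 14 h ran from 40.1 to 45.4 CPM with IFN-β and from 36.8 to 41.6 CPM with vehicle. Gfap, a marker of neural stem cells and astrocytes, had 162 CPM with IFN-β against 30.8 CPM with vehicle at 2 h. At 14 h Gfap had 1.33 CPM with IFN-β and 0.197 CPM with vehicle, and its part in the results was not tested. In the 2 h footprints, replicate 3 of both groups stood apart. Deviations of vehicle replicate 3 from its group mean correlated with those of IFN-β replicate 3 (r = 0.821 over 12104 genes), so the 2 h results are also given without both. With the other IFN-β libraries r was at most -0.317, but negative values follow in part from centring each group on its mean. The interferon response itself was large: Irf9, a subunit of the transcription factor that type I interferon activates, rose by 4.49 ± 0.22 (SE) on the log2 scale at 2 h and by 5.75 ± 0.12 at 14 h.

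A RefSeq promoter (GRCm38.p6) was held for 4 members, Socs1, Socs3, Socs4 and Cish, and not for Socs2, Socs5, Socs6 or Socs7. The 300 bases from 250 before to 50 after each start were searched on both strands for the GAS letters TTCNNNGAA, which STAT dimers are known to bind, and for the ISRE letters GAAANNGAAA, which the Irf9 complex is known to bind. Over 32851 mouse promoters, 8.30% held the GAS letters and 3.44% the ISRE letters. The sequences shown are those of the members for which a promoter was held and had a match. They are written 5′ to 3′ with the matched letters in capitals. The first covers chr16:10785537-10785786 on the minus strand and the second chr11:117969367-117969616 on the minus strand, each the 250 bases before the RefSeq start. The third is the stretch chr9:107296659-107296678 on the plus strand, the first 20 bases after the Cish start, in the annotated 5′ untranslated region. The Ensembl gene bounds given below differ from the RefSeq starts for Socs3 and Cish. The Ensembl Socs3 gene reaches 117970047, so the Socs3 stretch lies inside it. The Ensembl Cish gene begins at 107296026, upstream of the RefSeq start.
Socs1: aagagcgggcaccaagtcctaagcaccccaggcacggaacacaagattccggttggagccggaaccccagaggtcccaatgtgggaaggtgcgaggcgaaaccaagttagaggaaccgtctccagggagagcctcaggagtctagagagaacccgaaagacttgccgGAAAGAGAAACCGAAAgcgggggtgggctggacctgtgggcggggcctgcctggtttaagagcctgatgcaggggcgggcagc
Socs3: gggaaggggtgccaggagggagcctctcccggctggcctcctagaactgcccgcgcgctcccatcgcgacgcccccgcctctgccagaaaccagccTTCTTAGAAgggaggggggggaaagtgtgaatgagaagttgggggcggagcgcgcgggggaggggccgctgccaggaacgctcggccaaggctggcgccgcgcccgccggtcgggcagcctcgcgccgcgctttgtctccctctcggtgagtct
Cish: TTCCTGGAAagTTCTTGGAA

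The Socs1 promoter held a pair of ISRE matches that share bases, GAAAGAGAAA and GAAACCGAAA, between 83 and 68 bases before the start. The Socs3 promoter held 1 GAS match, TTCTTAGAA, from 154 to 146 bases before the start. In Cish, both GAS matches, TTCCTGGAA and TTCTTGGAA, lay within the first 20 bases after the start. Socs4 held neither pattern in its window. A match shows only that these letters are there, and binding was not measured.

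At 2 h of IFN-β, footprints rose on 4 of the 8 members, Socs1, Socs2, Socs3 and Cish, and on none did they fall. By the same test (edgeR's quasi-likelihood test, adjusted p under 0.05 over all genes tested), 7.25% of 12104 genes were called in either direction, 5.25% higher and 2.01% lower. Libraries of the groups did not overlap for 5 members, all with IFN-β above vehicle (Socs1, Socs2, Socs3, Socs4 and Cish), against 7.68% of all genes. Socs1 and Socs2 reached the count minimum only through the IFN-β libraries, so that they could hardly be tested without also differing, and the count of 4 includes them for completeness. The test behind the count of 4 did not use the replicate numbers. With replicate number as block, 7 members were called higher, against 15.9% of all genes.

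Socs1, the direct JAK inhibitor, lies on chromosome 16 (10782240 to 10785536, minus strand, ENSMUSG00000038037) and has a coding sequence of 636 bases. At 2 h its footprints were 112, 110, 102 and 60 counts in the IFN-β libraries, in replicate order, and 3, 6, 0 and 2 counts in the vehicle libraries. On the scale normalised for depth these were 14.1, 22.5, 14.2 and 9.95 CPM against 0.319, 0.839, 0.00 and 0.275 CPM. Every IFN-β library was far above every vehicle library, and replicate 3 was the highest of its group under both conditions. The log2 fold change was 5.36 ± 0.50 (SE; adjusted p = 0.00015, edgeR), which ranked 55 of the 12104 genes tested, from the highest. No vehicle library reached the count minimum, so the adjusted p and the rank of Socs1 are given for completeness only.

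Socs3, the other member with a kinase inhibitory region (chromosome 11, 117966079 to 117970047, minus strand), had 72, 73, 88 and 83 footprints with IFN-β at 2 h and 41, 28, 27 and 29 with vehicle. In CPM the IFN-β libraries held 9.09, 14.9, 12.3 and 13.8, and the vehicle libraries 4.36, 3.91, 3.57 and 3.99. The vehicle libraries lay close together, and the lowest IFN-β library (replicate 2) was still above all of them. The log2 fold change was 1.65 ± 0.19 (adjusted p = 0.000513, edgeR). Unlike Socs1, Socs3 had footprints in all vehicle cultures, so its fold rests on counts in both groups.

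Cish, an inhibitor of STAT5 signalling (chromosome 9, 107296026 to 107302784, plus strand), had a rise close in size to that of Socs3. It had 93, 54, 60 and 83 footprints with IFN-β at 2 h against 26, 17, 31 and 29 with vehicle. These were 11.7, 11, 8.37 and 13.8 CPM against 2.76, 2.38, 4.10 and 3.99 CPM. No vehicle library reached the lowest IFN-β library. The log2 fold change was 1.76 ± 0.23 (adjusted p = 0.0013, edgeR). Of its 771 coding bases, 341 lie under exons of Gm17040 and Gm17041 on the opposite strand, and since the strand setting of the counting is not given in the sources used here, the Cish values are uncertain to that extent.

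Socs2, which binds the growth hormone receptor, was far scarcer. Its footprints at 2 h were 11, 12, 11 and 12 counts with IFN-β against 2, 0, 3 and 5 with vehicle, or 1.39, 2.45, 1.53 and 1.99 CPM against 0.213, 0.00, 0.397 and 0.689 CPM. The groups did not overlap, but each IFN-β library was only just above the minimum of 10 counts. No vehicle library reached that minimum, so Socs2 could hardly be tested without differing, and its p-value is given for completeness. The log2 fold change was 2.43 ± 0.54 (adjusted p = 0.0259, edgeR), and the call was lost when any of 4 libraries was left out (IFN-β replicate 5 or 6, vehicle replicate 2 or 5), with an adjusted p of up to 0.0894.

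**Figure D1:**
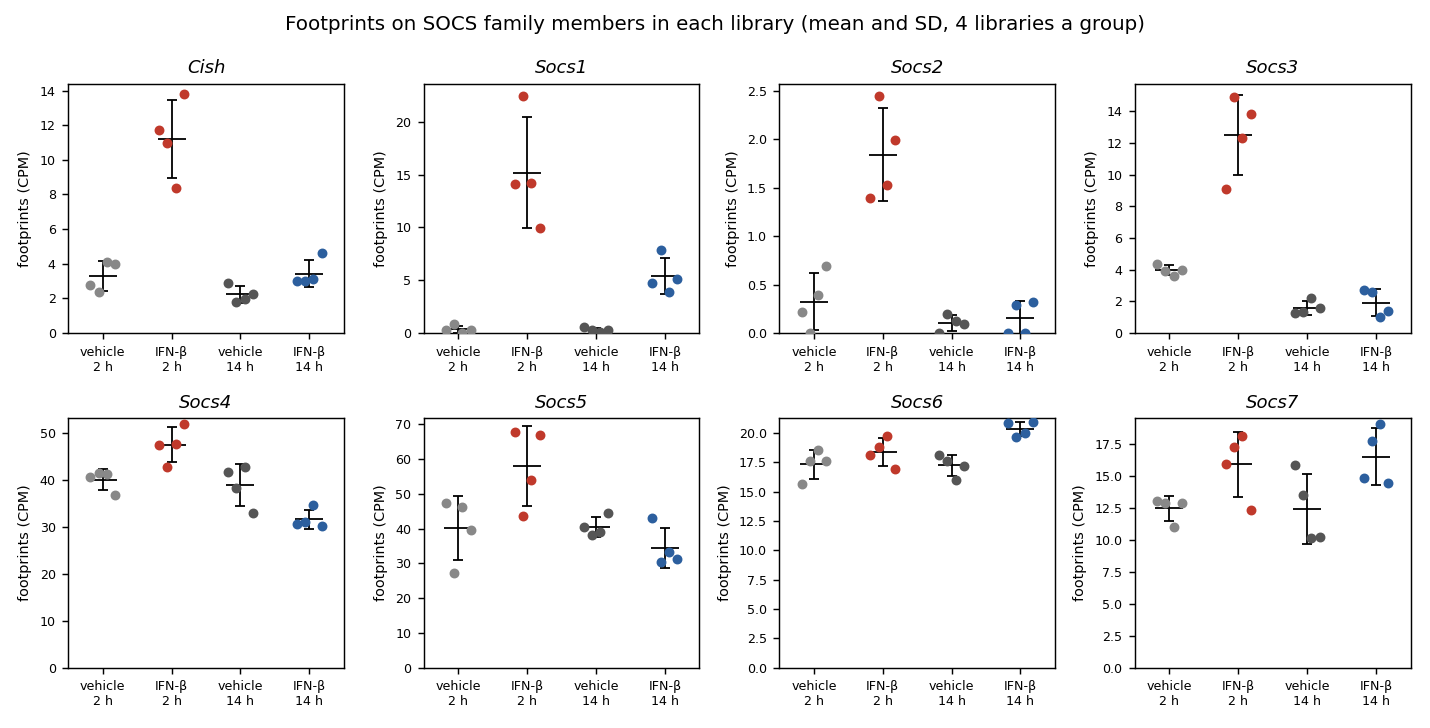
Footprints (CPM, y axes from 0 and on a scale of their own) on each of the 8 SOCS family members in the vehicle and IFN-β groups at 2 h and 14 h. Points are the 4 libraries of a group, bars the mean and SD; at 2 h Socs1 averaged 15.2 CPM with IFN-β against 0.358 with vehicle, while Socs6 averaged 18.4 against 17.3.

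The long members Socs4 to Socs7 had log2 fold changes of 0.09 to 0.54 at 2 h, and none passed the test without the replicate block. Socs5, linked to the epidermal growth factor receptor, had 67.7, 43.5, 54.0 and 66.8 CPM with IFN-β against 47.4, 27.3, 46.2 and 39.5 CPM with vehicle. The groups overlapped, and replicate 3 was the lowest of its group in both. Its log2 fold change was 0.54 ± 0.19 (adjusted p = 0.172, edgeR). Within each replicate number the IFN-β library was the higher, and in a fit with replicate number as block its adjusted p was 3.28e-06.

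Socs4 had 42.7 to 51.9 CPM with IFN-β and 36.8 to 41.4 CPM with vehicle at 2 h, which do not overlap, and a log2 fold change of 0.25 ± 0.09 (adjusted p = 0.151, edgeR). Socs7, linked to insulin receptor substrates, ran from 12.3 to 18.1 CPM against 11 to 13.0 CPM and changed by 0.35 ± 0.14 (adjusted p = 0.229, edgeR). Socs6 ran from 16.9 to 19.7 CPM against 15.6 to 18.5 CPM, with a log2 fold change of 0.09 ± 0.10 (95% interval -0.15 to 0.32, adjusted p = 0.793, edgeR). The block changed the first of these calls to an adjusted p of 0.012 and that of Socs7 to 0.0301, and left Socs6 at 0.554. With the block, 7 members were thus called higher, in a fit that called 15.9% of all genes higher. That count includes Socs1 and Socs2, which passed the count minimum only through the IFN-β libraries.

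Without replicate 3 of either 2 h group, an alternative chosen after seeing the data, 6 members were called higher, against 9.45% of all genes. The added members were Socs4 (0.31, adjusted p = 0.0264, edgeR) and Socs5 (0.50, adjusted p = 0.00533, edgeR). Socs1, Socs2, Socs3 and Cish were called in that fit too, with log2 fold changes of 5.86, 1.93, 1.54 and 1.65. Here too Socs1 and Socs2 were tested only through their IFN-β libraries and are counted for completeness.

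At 14 h, footprints were higher with IFN-β on Socs1, Cish, Socs7 and Socs6 and lower on Socs4 and Socs5, so that 6 of the 7 members tested were called. At this time 52.5% of 12113 genes were called, 26.2% higher and 26.3% lower. Apart from Socs1 (4.14), no member changed by more than 0.70, and the count of members called is to be read against that background. The IFN-β libraries lay wholly above the vehicle libraries for 3 members (Socs1, Socs6 and Cish), against 23.4% of all genes, and for no member wholly below.

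Socs1 stayed high. Its footprints at 14 h were 14, 55, 26 and 48 counts with IFN-β and 3, 3, 1 and 3 with vehicle, or 4.70, 7.87, 3.85 and 5.15 CPM against 0.538, 0.299, 0.124 and 0.285 CPM. The lowest IFN-β library was several times the highest vehicle library. The log2 fold change was 4.14 ± 0.37 (adjusted p = 1.04e-06, edgeR), rank 157 of the genes tested, and as at 2 h it passed the count minimum only through the IFN-β libraries.

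For Socs3 no difference was detectable at 14 h. Its libraries held 2.69, 2.58, 1.04 and 1.39 CPM with IFN-β and 1.26, 1.30, 2.23 and 1.61 CPM with vehicle, and the groups overlapped throughout. The log2 fold change of 0.14 ± 0.33 (95% interval -0.57 to 0.86, adjusted p = 0.738, edgeR) turned to -0.11 when IFN-β replicate 2 was left out. Cish kept a small difference, with 3.02, 3.01, 3.11 and 4.61 CPM against 2.87, 1.79, 1.98 and 2.28 CPM. Its change of 0.70 ± 0.23 (adjusted p = 0.0221, edgeR) fell to 0.48 without IFN-β replicate 4 (adjusted p = 0.12), and DESeq2 gave an adjusted p of 0.066.

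Socs2 was not tested at 14 h, since no library held more than 3 of its footprints. The 4 IFN-β libraries held 5 in all and the 4 vehicle libraries 4 in all.

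Socs4 and Socs5 fell at 14 h. Socs4 had 30.5, 30.9, 34.5 and 30.2 CPM with IFN-β against 41.6, 38.3, 42.6 and 32.8 CPM with vehicle, where vehicle replicate 4 lay among the IFN-β libraries (log2 fold change -0.29 ± 0.09, adjusted p = 0.0174, edgeR). Socs5 had 43.0, 30.5, 33.2 and 31.3 CPM against 40.5, 38.1, 39.0 and 44.5 CPM, where IFN-β replicate 1 was above 3 vehicle libraries (-0.28 ± 0.10, adjusted p = 0.0276, edgeR). Socs6 and Socs7 rose by 0.24 ± 0.09 and 0.43 ± 0.16 on the log2 scale (adjusted p = 0.0345 and 0.033, edgeR). Over 8 fits that each left out 1 library, Socs4 lost the call in 2, Socs5 in 5, Socs6 in 6 and Socs7 in 4. The log2 fold changes in these fits stayed at -0.37 to -0.24 for Socs4, -0.36 to -0.22 for Socs5, 0.21 to 0.26 for Socs6 and 0.35 to 0.55 for Socs7, and with the replicate block all 4 were called (adjusted p of 0.00159 to 0.0243, edgeR).

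**Figure D2:**
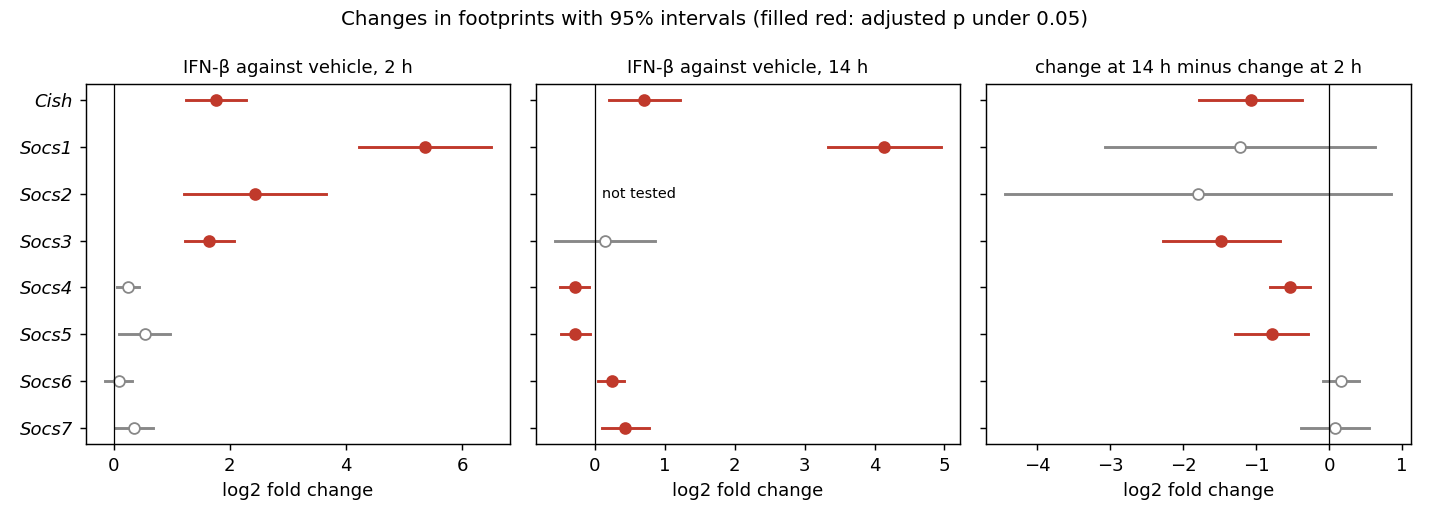
Log2 fold change of footprints with its 95% interval (x axes) for each member at 2 h, at 14 h and for the change at 14 h minus that at 2 h; filled red points had an adjusted p under 0.05 and open grey points did not. Socs3 moved from 1.65 at 2 h to 0.14 at 14 h, and Socs1 was at 5.36 and 4.14.

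Whether the response differed between the times was tested directly, by fitting all 16 footprint libraries with a time by treatment term. The times used separate sets of cultures, so a difference between times cannot be told apart from one between culture sets. The response was lower at 14 h than at 2 h for 4 of the 8 members, Socs3, Cish, Socs5 and Socs4, and higher for none. Of 12508 genes, 30.9% were called in this test, 15.4% higher and 15.5% lower. The difference was -1.48 ± 0.38 for Socs3 (adjusted p = 0.00813, edgeR) and -1.07 ± 0.33 for Cish (adjusted p = 0.0227). For Socs5 it was -0.79 ± 0.24 (adjusted p = 0.0188, edgeR) and for Socs4 -0.54 ± 0.13 (adjusted p = 0.00426). These 4 members were called in each of 16 fits that left out 1 library, with the replicate block, and without replicate 3 of the 2 h groups.

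For Socs1 the difference between the times was -1.22 ± 0.87 (95% interval -3.07 to 0.63, adjusted p = 0.307, edgeR). Its vehicle libraries held 11 footprints in all at 2 h and 10 at 14 h, and a difference between the times was not detectable at this depth. Socs2 had an even wider interval (-4.44 to 0.85). Socs6 and Socs7 had differences of 0.16 (-0.09 to 0.41) and 0.08 (-0.39 to 0.55).

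Vehicle footprints on Socs3 also differed between the times. In a comparison added after the values were seen, they were lower at 14 h than at 2 h by -1.30 ± 0.27 on the log2 scale (adjusted p = 0.00195, edgeR), while 16.9% of all genes were called lower. Cish had -0.59 ± 0.25 (adjusted p = 0.0738, edgeR), Socs2 had -1.34 ± 0.82 (adjusted p = 0.216), Socs1 had -0.25 ± 0.76 (adjusted p = 0.822), and Socs4 to Socs7 lay between -0.05 and 0.01. The times used separate sets of cultures, so time and culture set cannot be told apart in this comparison either.

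Levels can be set between members only per length of coding sequence. In vehicle cultures at 2 h the order, in CPM per kb, was Socs4 (30.6 ± 1.67, SD, n = 4), Socs5 (24.9 ± 5.74), Socs6 (10.8 ± 0.769), Socs7 (7.16 ± 0.558), Socs3 (5.87 ± 0.476), Cish (4.29 ± 1.13), Socs1 (0.563 ± 0.550) and Socs2 (0.436 ± 0.392). Library ranges of neighbours overlapped for Socs4 and Socs5, Socs7 and Socs3, Socs3 and Cish, and Socs1 and Socs2. With IFN-β at 2 h, Socs1 moved from the seventh place to the third (23.9 ± 8.24 CPM per kb), followed by Socs3 (18.5 ± 3.74) and Cish (14.6 ± 2.89), and the ranges of all neighbours from Socs4 down to Socs6 overlapped. At 14 h with IFN-β, Socs1 took the fifth place at 8.48 ± 2.73 CPM per kb, overlapping Socs7 (9.48 ± 1.29) and apart from Cish (4.46 ± 1.02).

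Summed over the family, footprints per kb were 84.7 ± 5.58 CPM per kb (SD, n = 4) with vehicle and 152 ± 4.64 with IFN-β at 2 h, and 78.7 ± 3.74 and 83.8 ± 2.96 at 14 h. At 2 h the libraries ran from 77.2 to 89.4 and from 146 to 156, at 14 h from 75.3 to 83.8 and from 80.5 to 86.9. The family total was thus clearly apart between the groups at 2 h and overlapped at 14 h. Socs1 made up 0.698% ± 0.720 of the total with vehicle and 15.7% ± 5.18 with IFN-β at 2 h, and 0.616% ± 0.311 and 10.1% ± 3.11 at 14 h. Socs4 and Socs5 together were the larger share in vehicle cultures, at 36.2% and 29.2% at 2 h and 37.7% and 32.1% at 14 h.

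**Figure D3:**
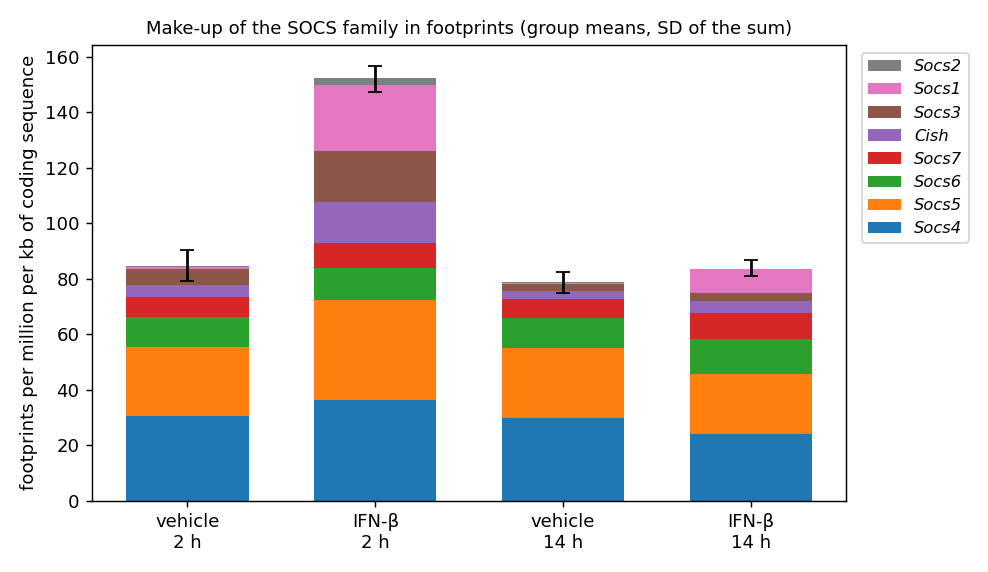
Footprints in CPM per kb of coding sequence (y axis) on the 8 members, stacked as group means for vehicle and IFN-β at 2 h and 14 h; error bars are the SD of the family sum over 4 libraries. The sum is 152 with IFN-β at 2 h and 78.7 to 84.7 in the other groups.

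Total RNA gave few reads on this family. Actb, the cytoskeletal actin gene, had 18780 to 73117 footprints but only 47 to 854 total RNA counts per library, and over the 500 genes with the most footprints the median total RNA count was 44.5 at 2 h and 11.5 at 14 h. Socs4 to Socs7 reached the count minimum at 2 h and Socs7 alone at 14 h, and none was called (edgeR, with no member at an unadjusted p under 0.05 at either time), against 0.799% of all genes at 2 h and 6.30% at 14 h. By DESeq2 and limma-voom none was called either.

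For the members that rose in footprints, total RNA counts at 2 h were below the count minimum. Without that minimum none of the 8 members was called (edgeR, lowest adjusted p = 0.182). In that fit 3 members had an unadjusted p under 0.05, as did 1591 of 25451 genes. Socs1 had 3, 2, 9 and 4 counts with IFN-β and 0, 1, 0 and 0 with vehicle. Socs3 had 7, 9, 12 and 8 against 3, 3, 2 and 2. These are raw counts from libraries of unequal depth (3992402 to 7877753 counts). Cish had 5, 4, 3 and 8 against 3, 1, 1 and 3, and Socs2 had 4, 12, 1 and 5 against 2, 2, 0 and 1, and these groups overlapped. In CPM, total RNA of Socs1 at 2 h ran from 0.317 to 1.5 with IFN-β and from 0.0 to 0.162 with vehicle. That of Socs3 ran from 0.986 to 2.0 and from 0.31 to 0.641 CPM, again at low counts. At 14 h no library held more than 1 total RNA count of Socs1. Of the tested members, Socs7 had 49 to 85 counts with IFN-β and 44 to 52 with vehicle at 2 h, and log2 fold changes of 0.24 ± 0.30 at 2 h and 0.36 ± 0.23 at 14 h.

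Translation efficiency (TE) is the change in footprints relative to that in total RNA, tested as a library kind by treatment term at an adjusted p under 0.1. It shares the footprint libraries with the comparisons above. No member was called at 2 h (0.815% of 14115 genes were) or at 14 h (8.45% of 13447 genes were). An unadjusted p under 0.05 (edgeR) was found for 0 members and 1005 of all genes at 2 h. At 14 h it was found for 3 members and 2416 of all genes. Those 3 had TE values of 5.17 ± 1.88 for Cish (adjusted p = 0.126, edgeR), 2.08 ± 0.94 for Socs3 (adjusted p = 0.242) and -1.30 ± 0.60 for Socs6 (adjusted p = 0.248). Socs1 had 3.56 ± 2.17 (adjusted p = 0.425, edgeR). With limma-voom Cish, Socs1 and Socs3 were called, at 2.19 for Cish (adjusted p = 0.00578), 4.13 for Socs1 (adjusted p = 0.000493) and 2.11 for Socs3 (adjusted p = 0.0609), against 11.2% of all genes. The call thus depends on the tool. In total RNA at 14 h Cish had 0 counts in the IFN-β libraries and 3 in the vehicle libraries together, and Socs1 had 2 and 1, so these fitted values depend on the prior count and are no bounds.

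The pathway around the family was described with 5 lists of genes. Of 12 JAKs, STATs and Irf9, which SOCS proteins restrain, 10 were tested at 2 h and 7 rose, and 11 were tested at 14 h and 9 rose, with none lower at either time and a median of 0.81 at both. Over all genes, 5.25% were higher and 2.01% lower at 2 h, and 26.2% and 26.3% at 14 h, which is the background for each list. The response of Irf9 was larger at 14 h than at 2 h, by 1.25 ± 0.28 (adjusted p = 0.00346, edgeR). Its vehicle level was 4.14 CPM at 2 h and 2.15 CPM at 14 h, and its level with IFN-β 92.6 and 110 CPM.

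Of 21 cytokine receptors, 17 were tested at 2 h, with 4 higher and none lower (6 higher and 3 lower with the replicate block). At 14 h 16 were tested, with 9 higher and none lower (11 and none with the block). Il13ra1, a receptor subunit for interleukin 13, had the largest rise among those called at 14 h (1.30 ± 0.26), and rose by 3.38 ± 0.24 at 2 h, a decline between the times of -2.08 ± 0.36 (adjusted p = 0.000397, edgeR). Of 17 receptors tested for a difference between the times, 3 had a higher response at 14 h and 3 a lower one (7 and 4 with the block).

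Among 14 other negative regulators, 4 of the 13 tested rose and 1 fell at 2 h, and 3 of 14 rose and 2 fell at 14 h (4 and 4 with the block). Usp18, which blocks the interferon receptor, rose by 6.69 ± 0.31 at 2 h and 11.31 ± 0.21 at 14 h, and Isg15, the ubiquitin-like protein that Usp18 removes from its targets, by 6.87 ± 0.22 and 11.33 ± 0.14. Vehicle levels were low and differed between the times, at 1.99 and 0.227 CPM for Usp18 and 2.71 and 0.536 CPM for Isg15. Cbl, a ubiquitin ligase of receptors, fell by 0.41 ± 0.05 on the log2 scale at 14 h. The tyrosine phosphatases Ptpn1 and Ptpn2, named here after their values were seen, had rises of 0.97 ± 0.08 and 0.61 ± 0.10 at 2 h. Their responses at 14 h were lower by -1.07 ± 0.10 and -0.78 ± 0.14 (adjusted p = 8.27e-07 and 0.000685, edgeR). Of the 14 regulators, 4 had a higher response at 14 h than at 2 h and 3 a lower one (5 and 3 with the block). Over all genes, 15.4% were higher and 15.5% lower in this test.

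The 10 subunits of the SOCS box ligase were nearly flat. None was called at 2 h (median 0.06), and at 14 h Ube2m rose by 0.17 ± 0.06 and Eloc, the elongin C that the SOCS box binds, fell by 0.41 ± 0.06 on the log2 scale (adjusted p = 0.0188 and 6.51e-05, edgeR). Of 24 other SOCS box proteins, 15 were tested, with 2 higher and 1 lower at 2 h (5 and 1 with the block) and 7 higher and none lower at 14 h (8 and none with the block). Spsb1, a ligase subunit known to target inducible nitric oxide synthase, rose by 2.74 ± 0.15 at 2 h and 1.84 ± 0.17 at 14 h, a decline of -0.91 ± 0.23 (adjusted p = 0.008, edgeR). Between the times, 3 of the 15 other SOCS box proteins had a higher response at 14 h and 2 a lower one (5 and 2 with the block).

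**Figure D4:**
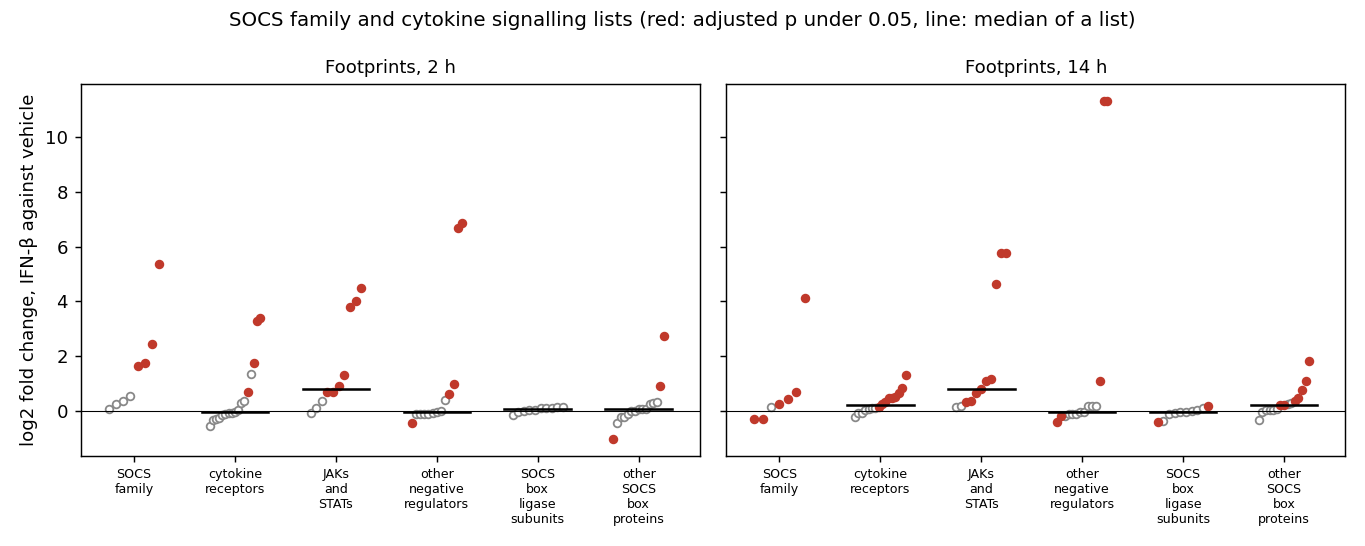
Log2 fold change of footprints (y axis) for the tested genes of the SOCS family and of 5 lists of cytokine signalling genes at 2 h and 14 h; each point is a gene, red at an adjusted p under 0.05, and lines are the medians of the 5 lists. The median of JAKs and STATs is 0.81 at both times.

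The genes whose footprint pattern lay closest to each member were found by the root mean square difference of centred log2 levels over 16 libraries, among 10258 genes. For Socs1 these were Clec2d, Trim21 and Irf1 (0.536 to 0.602, against an SD of 1.94 of Socs1 itself). For Socs3 they were Rgs20, Prr5l and Efr3b (0.374 to 0.402, SD 1.12), for Cish Tnip2, Etv6 and Lonrf1 (0.307 to 0.319, SD 0.86) and for Socs2 Etv6, Npl and Tnip2 (0.323 to 0.355, SD 0.88). Cish and Socs2 thus shared Etv6 and Tnip2. The members with small changes had near patterns at 0.103 to 0.111 for Socs4 (Rsrc2, Katnbl1 and Atad1), 0.156 to 0.174 for Socs5 (Tbc1d1, Ctbp2 and Txnrd1), 0.0622 to 0.0796 for Socs6 (Gosr2, Vcpip1 and Tcf25) and 0.153 to 0.176 for Socs7 (Capza2, 4930453N24Rik and Tulp4). In all these the likeness is a description over libraries that share depth and culture.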

How the data were processed

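Ribosome footprints and total RNA were sequenced for 16 cultures (32 libraries). The authors trimmed reads with Trim Galore 0.4.4, mapped them with Bowtie 0.12.7 to the mouse transcriptome (GRCm38), removed duplicates and deposited raw counts per gene. No deposited table column was left without a sample. Identifiers were named through GENCODE mouse release 21, which matched 22205 of 23035 genes of the footprint tables and 37607 of 39017 of the total RNA tables.

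Counts were tested with edgeR 4.0.16 (TMM, quasi-likelihood, two-sided, Benjamini-Hochberg over all genes tested) in R 4.3.3, for genes that reached 10 counts in 4 or more libraries of a comparison. DESeq2 1.42.0, limma-voom (limma 3.58.1), other scalings and filters, a replicate block and leaving out each library were alternatives. Fits were tested on simulated data. Footprint replicate numbers pair the samples, since same-numbered libraries deviated together at both times (r of 0.203 to 0.821), as seen in the data and not stated in the labels. Levels are CPM with TMM over 16 libraries. An SE is the log2 fold change over the root of the F statistic. Named were all members, Irf9 and Usp18, the pathway genes called at 14 h with the largest change each way in each list, and the 3 nearest patterns of each called member, with a pseudocount of 0.5 CPM and a mean of at least 50 counts; another gene under this rule is not reported here. The members and lists were chosen with earlier results of these data known.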

Additional observations from a re-analysis of the deposited data

Results flagged for a closer look

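The response to IFN-β in footprints differed between 2 h and 14 h for 4 members, by the test of the difference itself. The change at 14 h minus that at 2 h was -1.48 for Socs3, -1.07 for Cish, -0.79 for Socs5 and -0.54 for Socs4 on the log2 scale. Socs5 and Socs4 had positive values at 2 h and fell at 14 h, whereas the Cish response stayed positive. Time and culture set cannot be told apart in these differences.

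Single libraries stood far from the other 3 of their group in 3 of the 32 groups of member footprints examined. IFN-β replicate 3 at 14 h had 34.5 CPM on Socs4, above the others at 30.2 to 30.9. Vehicle replicate 5 at 2 h had 11 CPM on Socs7, below the others at 12.9 to 13.0. IFN-β replicate 4 at 14 h had 4.61 CPM on Cish, above the others at 3.01 to 3.11, and without it the Cish call at 14 h was lost. Chance flags about 1 in 20 groups.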

How the results depend on the processing

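The rises of Socs3 and Cish at 2 h and the 4 differences between the times kept their direction and their call wherever these genes were tested. So did the rises of Socs1 at both times. Socs1, and Socs2 at 2 h, passed the count minimum only through the IFN-β libraries, so their calls are given for completeness. Members called in footprints at 2 h numbered 4, against 7 with the replicate block, 1 of 5 tested with a mean of at least 50 counts, and 3 to 4 leaving out a library. At 14 h 6 were called, and 1 to 6 leaving out a library. Without vehicle replicate 3 at 14 h, Socs1 alone was called. For the difference between times, 4 were called, 2 of 4 tested with the mean of 50, and 4 in each fit leaving out a library. For TE at 14 h, 0 were called, 3 with limma-voom, and 0 to 1 leaving out a culture (Socs6 at -1.65 without IFN-β replicate 1). The blocked fit called 3538 rather than 878 genes at 2 h and 6944 rather than 3867 between times, and for 2 h footprints the calls that were higher went from 72.3% to 54.3%. The other blocked calls of members did not change.

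Signs turned for values that were not called. Socs3 at 14 h was -0.11 to 0.34 leaving out a library (-0.11 without IFN-β replicate 2), and the Socs7 difference between times was -0.02 to 0.18 leaving out a library (-0.02, -0.02, -0.00 and -0.01 in 4 fits). Socs4 total RNA at 2 h was 0.04 on total counts alone, and -0.67 to 0.14 leaving out a library (0.11 and 0.14 in 2 fits). TE at 2 h turned for Socs3 (-0.00 with DESeq2, -0.40 on total counts alone, -0.04 with the upper quartile, and -0.05, -0.10, -0.07 and -0.08 leaving out a culture, range -0.10 to 0.19). It turned for Socs5 (-0.33 on total counts alone, -0.02 with the upper quartile, and -0.18, -0.07 and -0.20, range -0.20 to 0.24), for Socs7 (-0.32 on total counts alone, -0.03 and -0.15, range -0.15 to 0.28) and for Socs2 (-0.05, range -0.05 to 1.27). TE at 14 h turned for Socs4 (0.09 with limma-voom, 0.53 and 0.20, range -0.61 to 0.53) and Socs7 (-0.01 with the culture block, -0.16, -0.02 and -0.03). The cause was not tested.

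Socs6 at 14 h lost its call with DESeq2, the upper quartile and no filter (adjusted p = 0.102, 0.0522 and 0.0915), and Cish with DESeq2. Without replicate 3 of both 2 h groups, added after seeing the data, 1799 genes were called at 2 h.

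In total RNA, from the same cultures, same-numbered libraries did not consistently deviate together (r of -0.484 to 0.388). A pairing was thus not seen there, which does not show that the cultures were unpaired. Blocked fits of total RNA called no member. Over all genes, 93 were called in total RNA at 2 h, 169 with DESeq2, 174 without a filter and 44 with the mean of 50. At 14 h 474 were called, 269 on total counts alone and 247 with the mean of 50. For TE at 2 h 115 were called, 259 with DESeq2, 242 with limma-voom, 51 on total counts alone and 27 with the mean of 50. For TE at 14 h 1136 were called, 380 with the mean of 50 and 744 with a culture block. The share of total RNA calls that were higher was 90.3% at 2 h, 79.8% on total counts alone and 79.3% with DESeq2, and at 14 h 55.1% and 65.8% on total counts alone. That scaling moved the all-gene median from 0.04 to 0.23 in total RNA at 2 h, from -0.01 to 0.09 at 14 h and from -0.04 to -0.38 for TE at 2 h. Leaving out a library moved these counts to 57 (vehicle replicate 5) and 61 (IFN-β replicate 2) in total RNA at 2 h, 279 at 14 h (IFN-β replicate 1), and 73 and 75 for TE at 2 h (replicate 5 of either group). Low counts limit Socs1 and Socs2 in vehicle cultures and all members in total RNA.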
